A study of Mus musculus with 28 samples.

Results

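Adgrg6, Adgrg1, Lgi4, Adam22, Adam23, Prnp and Gpr37l1 are 7 genes grouped here around 2 signals of radial sorting by Schwann cells, the receptor Adgrg6 and the secreted protein Lgi4, with their relatives and proposed partners. They were taken by name from a table of 41605 gene identifiers, and all 7 passed the filter on low counts that left 17700 genes for testing. The table holds 28 RNA-seq libraries of peripheral nerve from untreated wild-type C57BL/6J mice, 4 at each of 7 stages: those labelled E13 and E17 before birth, which the methods place part of a day later than the label, and postnatal days P1, P5, P14, P24 and P60. Both sexes were used at each stage, and the labels do not give the sex of a library. E13 libraries were made from assorted nerves beyond the dorsal root ganglia although their label reads sciatic nerve, and E17 and later libraries from sciatic nerve. Each embryonic library pooled 2 embryos and each postnatal library came from 1 mouse. Epineurium and perineurium were stripped off as far as could be done from E17 on, but not at E13.

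Radial sorting is the step in which immature Schwann cells separate large axons out of a bundle and take up a single axon each before they myelinate it. Adgrg6 (also named Gpr126) is an adhesion G protein-coupled receptor of Schwann cells that raises cAMP and is required for them to pass from the promyelinating stage into myelination. Adgrg1 (Gpr56) belongs to the same family and signals through G12 and G13 proteins to RhoA, and Prnp encodes the prion protein, whose flexible tail is an agonist of Adgrg6. Lgi4 is a secreted protein, mutated in the claw paw mouse, that Schwann cells release and that binds the catalytically inactive metalloprotease-like proteins ADAM22 and ADAM23 on axons. The cell bodies of those axons lie in ganglia and spinal cord, outside the sciatic nerve. Gpr37l1 is an orphan-type receptor of glia for which prosaposin has been proposed as a ligand.

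Promoter sequences are shown for the receptor Adgrg6, its agonist gene Prnp and the receptor Gpr37l1, because these genes followed different courses along the timeline: a peak at E17, a stepwise rise to P60 and a rise at every step up to P14. RefSeq (GRCm38.p6) had entries for 6 of the 7 genes. Each sequence runs from 250 bases before the RefSeq start site through the 50 bases from it on, 5′ to 3′ on the strand of the gene, and capitals mark matches to the motifs TGACG (part of the cAMP response element) and ACAAAG (the SOX core), searched on both strands.
Adgrg6 promoter, chr10:14544987-14545286, minus strand: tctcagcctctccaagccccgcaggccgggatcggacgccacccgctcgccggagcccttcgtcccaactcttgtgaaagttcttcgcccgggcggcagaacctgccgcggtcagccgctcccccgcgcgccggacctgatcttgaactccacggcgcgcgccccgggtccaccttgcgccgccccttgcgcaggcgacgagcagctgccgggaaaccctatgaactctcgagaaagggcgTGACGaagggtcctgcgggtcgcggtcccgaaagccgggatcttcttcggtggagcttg
Prnp promoter, chr2:131909678-131909977, plus strand: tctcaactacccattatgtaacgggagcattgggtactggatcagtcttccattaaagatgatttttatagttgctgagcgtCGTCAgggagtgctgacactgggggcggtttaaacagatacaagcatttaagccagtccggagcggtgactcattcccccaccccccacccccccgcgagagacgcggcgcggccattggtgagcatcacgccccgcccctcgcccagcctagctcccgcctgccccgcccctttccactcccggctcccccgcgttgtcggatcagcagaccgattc
Gpr37l1 promoter, chr1:135167632-135167931, minus strand: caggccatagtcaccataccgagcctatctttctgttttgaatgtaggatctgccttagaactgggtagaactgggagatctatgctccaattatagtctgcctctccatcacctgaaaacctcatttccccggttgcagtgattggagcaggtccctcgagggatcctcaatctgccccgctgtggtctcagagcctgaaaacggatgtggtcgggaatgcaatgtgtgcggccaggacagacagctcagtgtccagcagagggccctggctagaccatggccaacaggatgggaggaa
The Adgrg6 window held TGACG beginning at position -9 relative to the start site. The Prnp window held it on the reverse strand at position -168, and the Gpr37l1 window held neither motif. TGACG was present in 20.8% and ACAAAG in 18.7% of 32851 promoters of the same length, and a match is a description of letters and no more.

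In GRCm38, Adgrg6 lies on chromosome 10 at 14402583-14545659 (minus strand), Adgrg1 on chromosome 8 at 94974751-95014217 (plus) and Lgi4 on chromosome 7 at 31059342-31070935 (plus). Adam22 spans chromosome 5 at 8072352-8368160 (minus), Adam23 chromosome 1 at 63445891-63596276 (plus), Prnp chromosome 2 at 131909928-131938429 (plus) and Gpr37l1 chromosome 1 at 135160234-135167681 (minus). Exons of Lgi4 share 2059 bases with Fxyd3, a gene on the opposite strand. Fxyd3 stood at 2.36 ± 1.16 CPM at E13 and 95.9 ± 9.08 CPM at P60 (mean ± SD, n = 4 each, where CPM are counts scaled to a common library size). Because the sources used here do not say whether reads were counted by strand, reads from Lgi4 and Fxyd3 in the shared stretch cannot be told apart. Exons of Prnp share 145 bases with Prn, an annotated gene that runs through Prnp on the same strand and stood between 9.62 and 62.2 CPM as stage means. Adgrg6 shares 441 bases with the antisense transcript Gm46212, which had 143 counts over all libraries against 125712 for Adgrg6.

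Libraries held 13899895 to 37662780 counts. CPM were scaled by the trimmed mean of M-values (TMM) over all 28 libraries. The sum of 13 neuron cell body markers was 1670 to 2860 CPM at E13 and 32.4 to 51.4 CPM at E17, with all 13 present in every E13 library and Scn10a at 0 in every P1 library. Erythroid markers also fell, from 4470 to 28300 CPM at E13 to 365 to 1010 CPM at E17. The sum of 10 Schwann cell markers was 371 to 761 CPM at E13, 4090 to 4510 CPM at E17 and 59300 to 75000 CPM at P14, where Mbp alone stood at 51500 ± 5560 CPM. Of the 10, 6 were called higher at P14 against E17, 3 did not pass and Erbb3 was lower by less than 2-fold. Over all genes 18.0% were called higher and 13.4% lower there, and 56.5% passed on adjusted p alone. Library 1 and library 4 of E13 and library 1 of P1 had a trend of their own along gene GC content (slopes of -0.93, 0.73 and -0.43 log2 units per 10% of GC against -0.16 to 0.20 in the other libraries from E17 on).

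**Figure D1:**
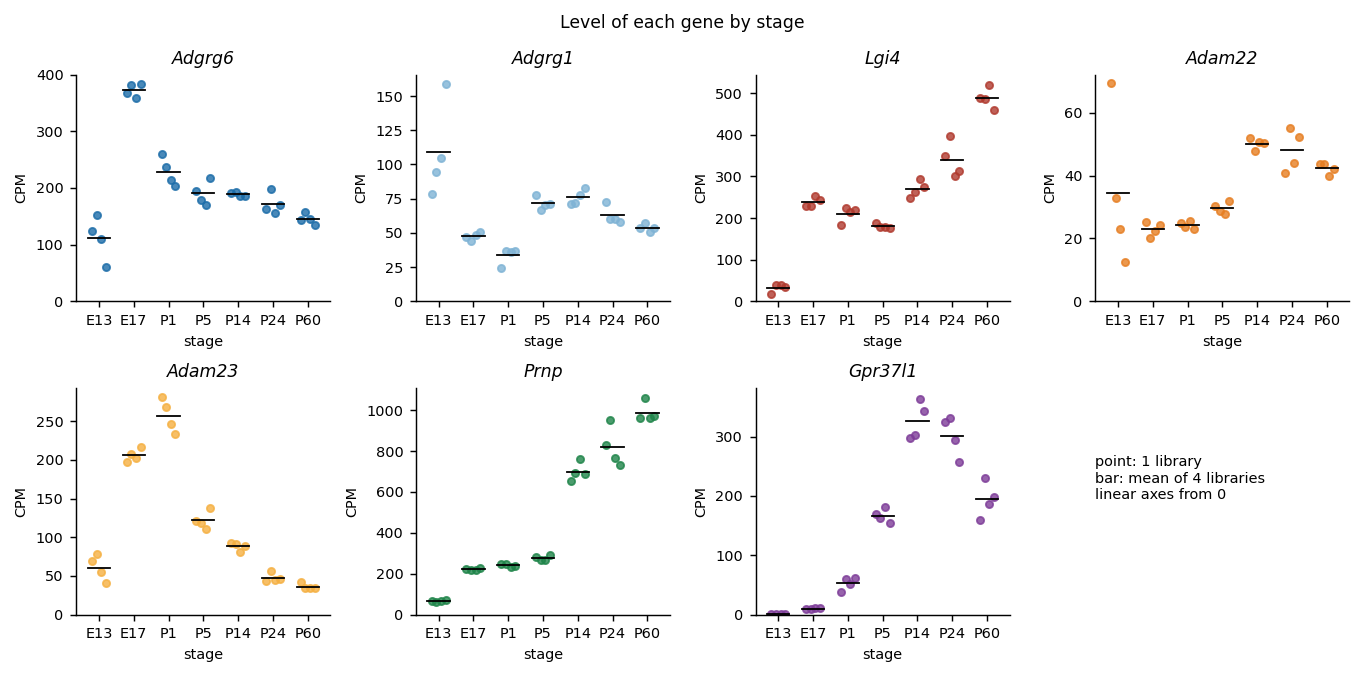
Level of each of the 7 genes (vertical axes, TMM-scaled CPM, linear from 0) by stage (horizontal axes). Points are single libraries and bars are means of 4. Adgrg6 was highest at E17 and Adam23 at P1, Gpr37l1 was highest at P14, and Lgi4 and Prnp were highest at P60.

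All 7 genes differed between stages by the edgeR quasi-likelihood test of any change (adjusted p between 1.4e-22 for Prnp and 0.00068 for Adam22), as did 88.8% of all genes tested. Without the E13 libraries the largest adjusted p was 9.5e-11, for Adgrg1, and 88.2% of 16662 genes tested passed. A change somewhere along the timeline was therefore the common state of genes in this table, and the courses below differ in when and in which direction each gene moved. A gene is counted as called where its adjusted p (Benjamini-Hochberg over 17700 genes) was under 0.05 and its change at least 2-fold. The changes are in bulk tissue, where fewer cells of a type and less RNA per cell cannot be told apart. Libraries of E13 and E17 also differ in nerve source and stripping. In every change from E13 to E17 below, stage cannot be told apart from these or from tissue content.

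Adgrg6, the receptor that raises cAMP, peaked at E17. Its levels were 124, 152, 110 and 60.4 CPM in the 4 libraries of E13 and 368, 382, 358 and 384 CPM at E17. They were 260, 237, 214 and 203 CPM at P1 and 195, 179, 170 and 217 CPM at P5. No E17 library overlapped with a library of any other stage. Levels were 191, 193, 186 and 186 CPM at P14, 163, 198, 156 and 169 CPM at P24, and 143, 157, 145 and 134 CPM at P60. Adgrg6 rose 3.34-fold from E13 to E17 (log2 change 1.74 ± 0.16 SE, edgeR adjusted p = 6e-10) and fell from E17 to P1 by 0.71 ± 0.16 on the log2 scale (adjusted p = 0.0012). In the order of stage means P1, P5, P14, P24 and P60 followed E17, and no neighbours among these passed the test, with P5 at 190 ± 20.5 CPM and P14 at 189 ± 3.75 CPM. Over the alternatives the adjusted p reached down to 0.0063 between P1 and P5 and to 0.011 between P24 and P60. The fall from E17 to P14 was 1.97-fold (log2 change -0.98 ± 0.16, adjusted p = 8.2e-06), just short of the 2-fold minimum, and that from P1 to P60 was 1.58-fold (-0.66 ± 0.16, adjusted p = 0.00085). The proliferation marker sum stood at 2210 to 2290 CPM at E17, also its highest, and at 4.79 to 6.97 CPM at P60, and its part in the course of Adgrg6 was not tested.

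Adgrg1, the relative of Adgrg6 that couples to RhoA, had its trough at P1 instead. Levels were 78.1, 94.2, 105 and 159 CPM at E13, 46.7, 44, 48.3 and 50.4 CPM at E17, and 24.3, 36.8, 36.2 and 36.6 CPM at P1. They were 77.6, 66.8, 70.7 and 71 CPM at P5 and 71.2, 72, 78 and 83 CPM at P14. The 4 libraries of P1 lay below every other library, and the P5 and P14 libraries overlapped. Levels were 72.6, 60.4, 59.8 and 58.1 CPM at P24 and 53.4, 57.4, 50.7 and 53.8 CPM at P60. Adgrg1 fell from E13 to E17 by 1.2 ± 0.15 on the log2 scale (adjusted p = 1.4e-07) and again to P1 by 0.50 ± 0.15 (adjusted p = 0.013, and 0.065 without library 1 of P1), then rose 2.14-fold from P1 to P5 (log2 change 1.10 ± 0.15, adjusted p = 6.4e-06). Without library 1 of P1 that rise was 0.98 and no longer reached 2-fold (adjusted p = 5.9e-05, and 2.1e-11 to 7e-05 over all alternatives). Neighbours in the order P14, P5, P24, P60, E17 did not pass the test (P60 against P24 did under some alternatives, with adjusted p down to 0.019), with differences of 0.09 to 0.22 on the log2 scale. The E13 values rose in the same order of libraries as their GC slopes, and the change from E13 to E17 was -0.97, under 2-fold, without library 4 of E13.

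Within single libraries the balance of both receptors shifted between E17 and P14. The log2 ratio of Adgrg6 to Adgrg1 was 2.98 ± 0.0985 at E17 and 1.3 ± 0.131 at P14 (SD, n = 4 each), a difference of -1.66 with no overlap (exact two-sided permutation p = 0.029, the smallest that 4 against 4 libraries allow, adjusted p = 0.034 over 6 tests). As a ratio of CPM this is 7.87 at E17 and 2.49 at P14. The 4 libraries of P60 stood between 1.31 and 1.52, overlapping P14 (difference 0.11, exact two-sided permutation p = 0.20). The P1 libraries were between 2.47 and 3.42 and the P5 libraries between 1.26 and 1.61, so that the ratios at P1 and P5 did not overlap.

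**Figure D2:**
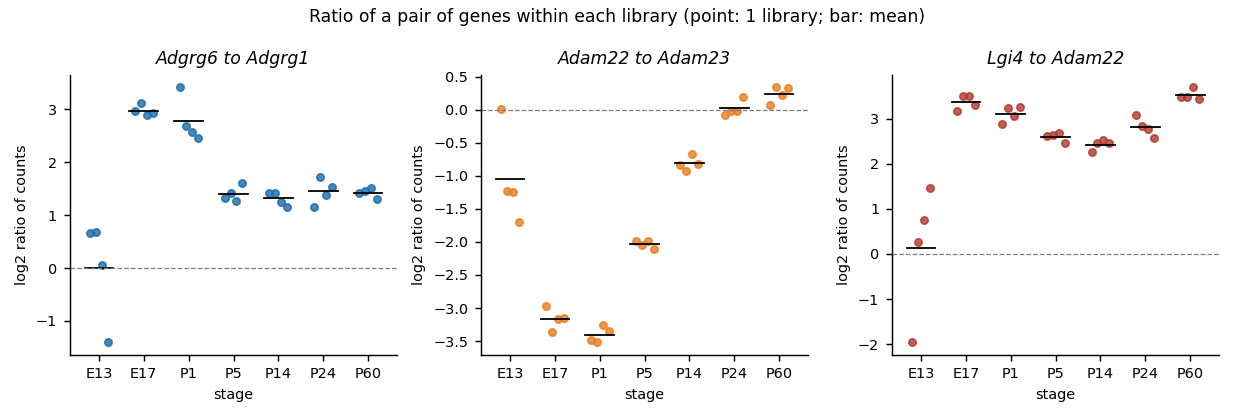
Log2 ratio of the CPM of a pair of genes within each library (vertical axes) by stage (horizontal axes). Points are libraries, bars are means of 4, and the dashed line marks equal CPM. Adgrg6 to Adgrg1 dropped between P1 and P5, Adam22 to Adam23 climbed from P1 to P60, and Lgi4 to Adam22 was lowest after E13 at P14.

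Prnp, the gene of the Adgrg6 agonist, climbed in steps. Its levels were 66.8, 63.1, 67.8 and 73.1 CPM at E13, 222, 217, 216 and 229 CPM at E17, 247, 248, 231 and 238 CPM at P1, and 281, 267, 268 and 293 CPM at P5. They were 653, 694, 763 and 689 CPM at P14, 829, 950, 768 and 730 CPM at P24, and 962, 1060, 962 and 970 CPM at P60. No pair of neighbouring stages overlapped except P14 and P24. Prnp rose 3.26-fold from E13 to E17 (log2 change 1.71 ± 0.09, adjusted p = 3.3e-15) and 2.53-fold from P5 to P14 (1.34 ± 0.09, adjusted p = 5.2e-12). Between these steps it stood at stage means of 221 to 277 CPM, and the changes of 0.12 ± 0.08 from E17 to P1 and 0.20 ± 0.08 from P1 to P5 did not pass (adjusted p = 0.29 and 0.10, and down to 0.043 and 0.0038 over the alternatives). From P24 to P60 Prnp rose by 0.27 ± 0.08 (adjusted p = 0.028, and 3.3e-05 to 0.12 over the alternatives). Over the whole postnatal span Prnp at P60 was 4.10-fold higher than at P1 (2.04 ± 0.09, adjusted p = 6.8e-17), while Adgrg6 was lower. Perineurial markers moved in the same direction after P5, from a sum of 421 to 448 CPM at P5 to 1420 to 1910 CPM at P60. Sums of endothelial, pericyte and smooth muscle, adipocyte and neuron cell body markers were also higher at P60 than at P5. Those of mesenchymal, immune, erythroid and proliferation markers were lower. The part of any of these in the rise of Prnp was not tested.

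The ligand list of Adgrg6 holds Prnp itself, the collagen IV chains Col4a1 and Col4a2, and the laminin chains Lama2, Lamb1 and Lamc1. From E13 to E17 all 6 rose at least 2-fold (median log2 change 2.70, against -0.08 over all genes, of which 35.5% were called in either direction), Lama2 by 4.93 ± 0.21. The summed level of 9 mesenchymal markers was 1200 to 2100 CPM at E13 and 11600 to 13300 CPM at E17, and its part in this rise was not tested. After E17 the list split. From E17 to P14 Prnp rose and Col4a1 and Col4a2 rose less than 2-fold (0.49 ± 0.19 and 0.69 ± 0.21), while Lamc1 fell by 1.11 ± 0.16 (adjusted p = 9.2e-07), Lama2 by 0.73 ± 0.18 and Lamb1 by 0.64 ± 0.13. The median of the list was -0.08, against 0 over all genes, of which 18.0% were called higher and 13.4% lower in this comparison. From P1 to P60 the 3 laminin chains were all called lower (Lama2 -2.31 ± 0.18, Lamb1 -2.01 ± 0.14 and Lamc1 -2.31 ± 0.16) and the collagen IV chains did not pass (Col4a1 -0.31 ± 0.19, Col4a2 -0.06 ± 0.21). Prnp was called higher, and over all genes 35.5% were called in either direction (median -0.02). Over this span the mesenchymal sum went from 7850 to 12400 CPM at P1 to 6140 to 7900 CPM at P60 and that of the proliferation markers from 1050 to 1440 CPM to 4.79 to 6.97 CPM, and their part was not tested.

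Of 22 genes of cAMP production, breakdown and response, 5 were called higher and 4 lower at P14 against E17, 7 passed with under 2-fold, and 6 did not pass (median -0.32). Over all genes 18.0% were called higher and 13.4% lower, so the counts of the list lay near the background. Adcy1, an adenylate cyclase, rose from 47.8 ± 3.87 CPM at E17 to 745 ± 57.2 CPM at P14 (log2 change 3.96 ± 0.10, adjusted p = 7.2e-22), and Rapgef4, the cAMP-activated exchange factor EPAC2, rose by 2.92 ± 0.16 (adjusted p = 1.5e-14). The phosphodiesterases Pde4b and Pde4d, which break down cAMP, fell by 1.91 ± 0.14 and 1.5 ± 0.19 (adjusted p = 4.1e-12 and 1.2e-07). Adgrg6 itself was lower at P14 than at E17, so that its level and those of Adcy1 and Rapgef4 ran in opposite directions between these stages. Adcy1 and Rapgef4 had the 2 largest rises of the list. Other genes of the list fell as Adgrg6 did, 4 of them called lower and 6 lower by less than 2-fold. Among 8 promyelinating transcription factors and partners, Egr2 (Krox20), which drives the myelin genes, rose by 2.75 ± 0.16 (adjusted p = 4.8e-14) and its corepressor Nab1 by 2.17 ± 0.22 (adjusted p = 3.4e-09). Pou3f1 (Oct6) passed with 0.68 ± 0.21, Pou3f2 and Yy1 fell by less than 2-fold, and Sox10 (0.52 ± 0.28), Nab2 and Nfatc4 did not pass. Of 7 Adgrg1 partners the G protein gene Gna12 (1.68 ± 0.20, adjusted p = 6.1e-08) and the cytolinker gene Plec (1.47 ± 0.28, adjusted p = 6.2e-05) were called higher, Arhgef12 passed with 0.52 ± 0.16, and Rhoa (-0.04 ± 0.09) and 3 others did not pass.

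Of 27 other adhesion G protein-coupled receptors 24 were tested, 5 were called higher and 8 lower at P14 against E17, beside 18.0% and 13.4% of all genes, and the median was -0.50. Adgrb3 fell by 2.67 ± 0.20 (adjusted p = 5.5e-12) and Celsr1 by 1.71 ± 0.23 (adjusted p = 4e-07), while Adgrb1 rose by 2.14 ± 0.32 (adjusted p = 2.6e-06). Adgrg7 had the largest fitted change of the list, 5.13 ± 0.92, on 268 counts in all and at most 1.24 CPM as a stage mean.

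Lgi4, the secreted ligand, had its lowest level at E13 and its highest at P60. Its levels were 17.9, 39.8, 39 and 34.8 CPM at E13, 228, 228, 254 and 243 CPM at E17, 184, 223, 214 and 219 CPM at P1, and 187, 179, 179 and 177 CPM at P5. They were 249, 263, 293 and 275 CPM at P14, 349, 397, 302 and 313 CPM at P24, and 488, 486, 520 and 460 CPM at P60. The P60 libraries lay above all others, and the P14 libraries overlapped those of E17. Lgi4 rose 7.26-fold from E13 to E17 (log2 change 2.86 ± 0.16, adjusted p = 2.2e-14). It did not pass between E17 and P1 (-0.18 ± 0.15) or between P1 and P5 (-0.22 ± 0.15), where the adjusted p reached down to 0.036 and 0.0019 over the alternatives. From P5 to P14 it rose 1.5-fold (0.58 ± 0.15, adjusted p = 0.0039) and from P24 to P60 1.44-fold (0.52 ± 0.15, adjusted p = 0.015, and up to 0.061 over the alternatives), and P60 was 2.33-fold higher than P1 (1.22 ± 0.15, adjusted p = 8.3e-08). The difference between P14 and E17, 0.18 ± 0.15, did not pass (adjusted p = 0.31, and 0.006 to 0.93 over the alternatives), and it was -0.31 when libraries were scaled by their totals only. Fxyd3, the overlapping gene, had a higher mean at each later stage, and its part in the level of Lgi4 was not tested.

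Adam22, whose protein is the main neuronal receptor of Lgi4 on axons, rose between P5 and P14 and varied widely at E13. Its levels were 69.3, 33, 22.9 and 12.6 CPM at E13, 25.1, 20, 22.5 and 24.4 CPM at E17, 25, 23.5, 25.6 and 22.9 CPM at P1, and 30.4, 28.7, 27.8 and 32 CPM at P5. They were 51.9, 47.9, 50.7 and 50.2 CPM at P14, 40.8, 55, 43.9 and 52.4 CPM at P24, and 43.6, 43.7, 40 and 42.1 CPM at P60. The E13 libraries spanned the range of all other stages, from the lowest to the highest value in the table for this gene, and their order was the reverse of that of their GC slopes. The change from E13 to E17, -0.59 ± 0.26, did not pass (adjusted p = 0.055) and was 0.00 without library 1 of E13. Over all alternatives its adjusted p ran from 0.00033 to 1. From P5 to P14 Adam22 rose 1.69-fold (0.75 ± 0.26, adjusted p = 0.030, and 8.6e-09 to 0.098 over the alternatives), with no overlap of libraries, and P14 was 2.18-fold higher than E17 (1.13 ± 0.27, adjusted p = 0.00074). Scaled by library totals only, the difference of P14 against E17 was 0.63 (adjusted p = 0.043, the highest over all alternatives, from 8.9e-13). After P14 no step passed, with P24 at -0.06 ± 0.26 against P14 and P60 at -0.18 ± 0.26 against P24. The neuron cell body markers summed to only 20.7 to 25.2 CPM at P14. Which cells of the nerve the Adam22 and Adam23 RNA came from was not tested.

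Adam23, the other receptor of Lgi4, ran the opposite way after birth. Its levels were 68.7, 77.9, 54.6 and 41.2 CPM at E13, 198, 208, 202 and 217 CPM at E17, 281, 269, 246 and 233 CPM at P1, and 121, 119, 111 and 138 CPM at P5. They were 92.5, 90.7, 80.6 and 89 CPM at P14, 43.1, 55.9, 44.4 and 45.7 CPM at P24, and 41.7, 34.5, 34.4 and 33.7 CPM at P60. From P1 to P60 each stage lay wholly below the one before it. Adam23 rose 3.40-fold from E13 to E17 (1.76 ± 0.14, adjusted p = 1.4e-11), and the higher level at P1 than at E17 did not pass (0.32 ± 0.13, adjusted p = 0.070, and 0.00045 to 0.29 over the alternatives). It fell 2.11-fold from P1 to P5 (-1.08 ± 0.13, adjusted p = 1.2e-06), then by 0.47 ± 0.13 to P14, 0.90 ± 0.13 to P24 and 0.39 ± 0.14 to P60 on the log2 scale (adjusted p = 0.0084, 8.6e-05 and 0.048). The last of these had an adjusted p of 0.00045 to 0.22 over the alternatives. At P60 the level was 7.13-fold lower than at P1 (-2.83 ± 0.14, adjusted p = 1.6e-15). The 6 proliferation markers also fell from P1 to P60, all at least 2-fold, where 35.5% of all genes were called in either direction. The part of these markers in the fall of Adam23 was not tested.

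The balance of the receptor genes of Lgi4 was furthest from Adam22 at P1 by stage means and shifted towards Adam22 from E17 to P14 and P60. Stage means of the log2 ratio of Adam22 to Adam23 were -1.04 at E13, with libraries from -1.70 to 0.01, and -3.40 at P1. The ratio was -3.16 ± 0.161 at E17, -0.812 ± 0.105 at P14 and 0.236 ± 0.125 at P60 (SD, n = 4 each). Differences of 2.35 from E17 to P14 and 1.05 from P14 to P60 had no overlap of libraries (exact two-sided permutation p = 0.029 each, adjusted p = 0.034). The ratio of CPM, not corrected for length, was 0.0947 at P1 and 1.18 at P60. The ratio of Lgi4 to Adam22 dipped and recovered: it was 3.37 ± 0.157 at E17, 2.42 ± 0.115 at P14 and 3.52 ± 0.117 at P60 on the log2 scale, with differences of -0.95 and 1.10 (exact two-sided permutation p = 0.029 each, adjusted p = 0.034). Both ratios compare RNA in nerve tissue, and protein on axons was not measured.

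Of the other LGI and ADAM genes, Lgi1, which acts on the same receptors in brain, followed the early part of the course and not the adult rise of Lgi4. It rose from 8.03 ± 3.04 CPM at E13 to 119 ± 3.02 CPM at E17 (3.89 ± 0.19, adjusted p = 9.1e-16), then fell to P14 (-1.12 ± 0.17, adjusted p = 1.9e-06) and stood at 33.9 ± 5.5 CPM at P60. Lgi2 fell from 22.1 ± 6.51 CPM at E17 to 4.61 ± 0.905 CPM at P14 (-2.26 ± 0.27, adjusted p = 5e-08). Lgi3 had stage means of 0.461 to 3.67 CPM and did not pass between E17 and P14 (0.16 ± 0.33). Adam11, another receptor of the LGI proteins, rose from 3.07 ± 0.762 CPM at E17 to 7.27 ± 1.81 CPM at P14 (1.24 ± 0.26, adjusted p = 0.00017) and to 21.3 ± 2.10 CPM at P60, and at E13 stood at 31.3 ± 5.07 CPM beside the neuron cell body markers.

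Radial sorting depends on laminins, their receptors and the cytoplasmic partners of these in Schwann cells. A list of 18 genes holds such genes and the neuregulin receptors, and shares Lama2 and Lamc1 with the ligand list of Adgrg6. Of the 18, 11 were called at E17 against E13, all higher (median 1.78), where 35.5% of all genes were called in either direction (median -0.08). In the same comparison 9 of 10 Schwann cell markers and 5 of 9 mesenchymal markers were called higher (medians 2.04 and 1.71) and all 13 neuron cell body markers lower (median -6.81), and their part in the rise of the list was not tested. At P14 against E17, Dag1, encoding the laminin receptor dystroglycan, was called higher (1.25 ± 0.14, adjusted p = 1.2e-08), Lama4 (-1.79 ± 0.12, adjusted p = 1.4e-12) and Lamc1 were called lower, 9 passed with under 2-fold and 6 did not pass (median -0.24), where 18.0% of all genes were called higher and 13.4% lower (median 0). The neuregulin receptor gene Erbb3 fell by 0.63 ± 0.14 (adjusted p = 0.00045), as Adgrg6 did over the same interval, and Itgb1 did not pass (-0.19 ± 0.16).

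Gpr37l1 had the widest range of the 7 genes as a fold, not in CPM. Its levels were 0.596, 0.767, 0.361 and 1.47 CPM at E13, 9.29, 9.03, 11.1 and 10.6 CPM at E17, 38.1, 60.7, 51.2 and 62.1 CPM at P1, and 169, 163, 181 and 154 CPM at P5. They were 297, 302, 364 and 343 CPM at P14, 324, 331, 294 and 257 CPM at P24, and 160, 231, 187 and 198 CPM at P60. Up to P14 no stage overlapped with the next, and the P60 libraries overlapped those of P5. Gpr37l1 rose 13.1-fold from E13 to E17 (log2 change 3.71 ± 0.24, adjusted p = 2.8e-13), 5.30-fold to P1 (2.41 ± 0.19, adjusted p = 8.5e-11), 3.14-fold to P5 (1.65 ± 0.18, adjusted p = 1.1e-07) and 1.96-fold to P14 (0.97 ± 0.17, adjusted p = 9.5e-05). P14 was 32.6-fold higher than E17 (5.03 ± 0.21, adjusted p = 2.6e-17). The change from P14 to P24 did not pass (-0.11 ± 0.17), and Gpr37l1 fell from P24 to P60 by 0.64 ± 0.17 (adjusted p = 0.011). The Schwann cell marker sum was also higher at P14 (59300 to 75000 CPM) than at P60 (35900 to 48200 CPM), mostly through Mbp (51500 ± 5560 CPM at P14 and 28300 ± 3780 CPM at P60). At P60 against P24, 2 of the 10 markers passed, both lower by less than 2-fold, where 16.1% of all genes passed. The other 8 did not pass, and the median change of the 10 was 0.03. The part of these markers in the course of Gpr37l1 was not tested.

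Its close relative Gpr37 followed a shorter course. Gpr37 rose from 4.10 ± 0.600 CPM at E17 to 42.1 ± 2.71 CPM at P1 and was down to 16.2 ± 0.952 CPM at P14 and 1.87 ± 0.284 CPM at P60, where it was lower than at P1 (log2 change -4.49 ± 0.17, adjusted p = 6.1e-18). P14 was still higher than E17 for Gpr37 (1.97 ± 0.15, adjusted p = 1.1e-11). Psap, which encodes prosaposin, rose from 601 ± 16.1 CPM at E17 to 1280 ± 66.7 CPM at P14 (1.09 ± 0.14, adjusted p = 2.4e-07) and stood at 1290 ± 75.6 CPM at P60. Of the prion gene family, Prnd, the neighbour of Prnp that encodes doppel, shared the rise of Prnp from E13 to E17 (2.96 ± 0.22, adjusted p = 8.8e-12) and went the other way after P5. It held 44.8 to 46.4 CPM as stage means from E17 to P5, fell by 2.68 ± 0.22 from E17 to P14 (adjusted p = 5.1e-11) and stood at 0.291 ± 0.211 CPM at P60. Sprn, encoding shadoo, did not pass between E17 and P14 (0.62 ± 0.49, adjusted p = 0.29) and had stage means under 1 CPM from E17 on.

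**Figure D3:**
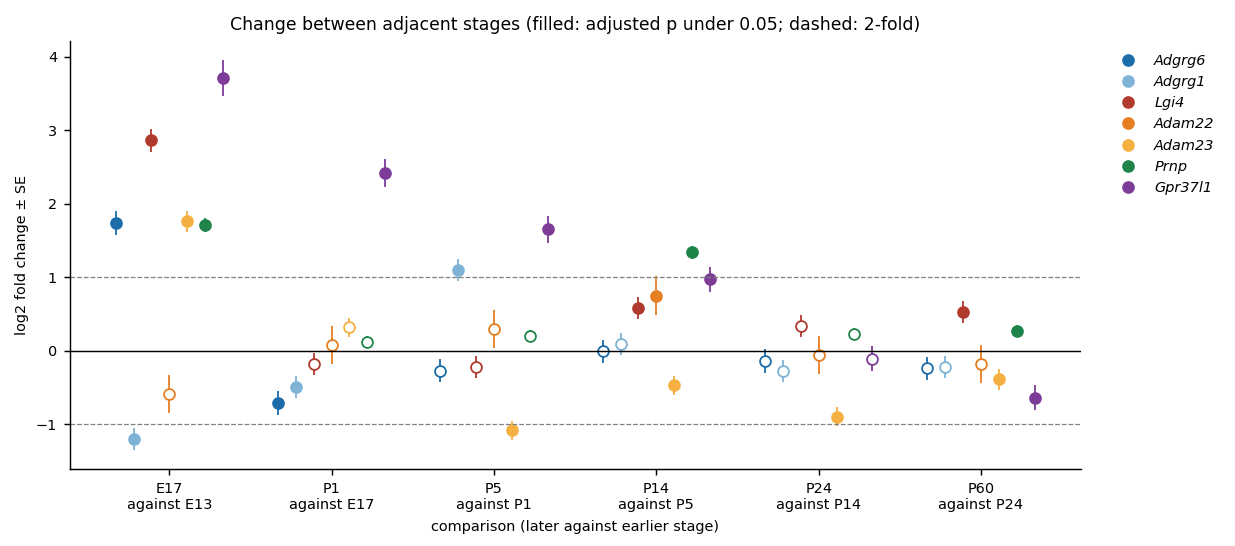
Log2 fold change ± SE (vertical axis) of each gene for each later stage against the stage before it (horizontal axis), from the edgeR fit of all 28 libraries. Filled points had adjusted p under 0.05 and dashed lines mark 2-fold: 6 of 7 genes passed at E17 against E13 and 1 of 7, Adam23, at P24 against P14.

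Counted over the 7 genes, 6 were called at E17 against E13 (all but Adam22), where 35.5% of all genes were called and 62.2% passed on adjusted p alone. Without library 4 of E13 the count was 5, without Adgrg1. At P1 against E17 only Gpr37l1 was called (background 11.7%), and 3 of 7 passed on adjusted p alone with Adgrg6 and Adgrg1 (29.5%). At P5 against P1 the called genes were Adgrg1, Adam23 and Gpr37l1 (background 5.84%, and 17.6% on adjusted p alone, where the count was also 3). Adgrg1 was no longer called there without library 1 of P1 or under 4 other settings, which left 2. At P14 against P5 Prnp was called (12.0%), and 5 of 7 passed on adjusted p alone (29.6%). At P24 against P14 edgeR called 0 of 7 (2.65%), 1 passed on adjusted p alone (5.45%) and 3 had an unadjusted p under 0.05. At P60 against P24 it also called 0 of 7 (5.96%), and Lgi4, Adam23, Prnp and Gpr37l1 passed on adjusted p alone (16.1%) and at an unadjusted p under 0.05, the first 3 of them not under every alternative. In both of these comparisons limma-voom and DESeq2 called 0 as well.

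Over the longer spans, Adam22, Adam23, Prnp and Gpr37l1 were called at P14 against E17, where 31.4% of all genes were, and all but Lgi4 passed on adjusted p alone (56.5%). Scaled by library totals only, Adgrg1 did not pass there (change 0.19, adjusted p = 0.24). At P60 against P1, Lgi4, Adam23, Prnp and Gpr37l1 were called (35.5%), and all 7 passed on adjusted p alone (61.1%). Adam22 at P60 against P1 had a change of 0.80 ± 0.26 (adjusted p = 0.053 when scaled by library totals only) and Adgrg1 one of 0.69 ± 0.15. In both spans the 7 genes did not share a direction: Adgrg6 and Adam23 were lower at the later stage and the other 5 had positive changes, that of Lgi4 at P14 against E17 short of the threshold and negative when scaled by library totals only.

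**Figure D4:**
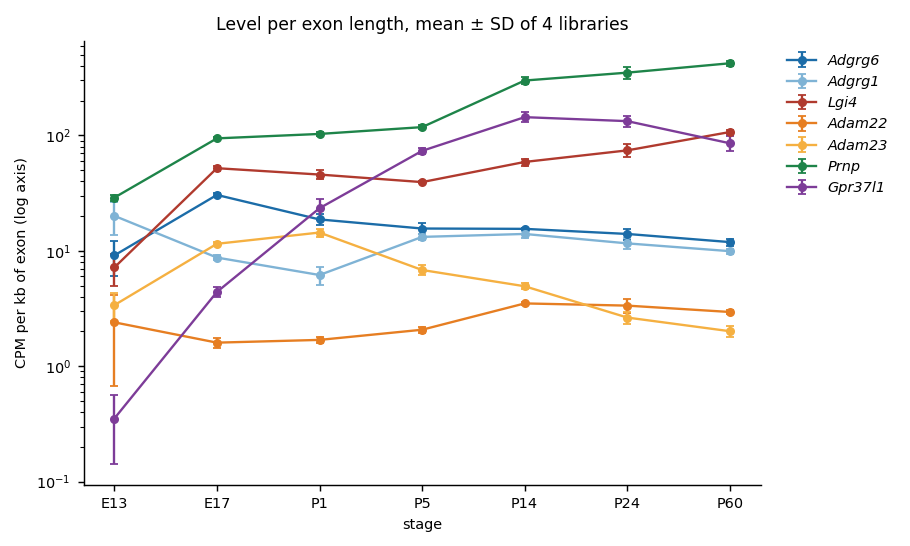
Level per kb of exon (vertical axis, CPM per kb, log scale) by stage (horizontal axis), mean ± SD of 4 libraries. Prnp was the highest of the 7 genes at every stage, and Gpr37l1 moved from the lowest at E13 to rank 2 at P14.

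Compared per length of exon, Prnp was the most abundant of the 7 genes at every stage, from 28.9 ± 1.77 CPM per kb at E13 to 422 ± 20.4 CPM per kb at P60. Lgi4 held rank 2 at E17 with 52.0 ± 2.78 CPM per kb, at P1 with 45.8 ± 3.87 CPM per kb and again at P60 with 107 ± 5.36 CPM per kb. Adgrg6 held rank 3 at E17 with 30.5 ± 0.992 CPM per kb, and at P60 it stood at 11.9 ± 0.795 CPM per kb beside 9.93 ± 0.509 CPM per kb for Adgrg1. At E13 the order of these receptors was the other way, with Adgrg1 at 20.1 ± 6.46 and Adgrg6 at 9.12 ± 3.13 CPM per kb. Adam22 was the least abundant of the 7 from E17 to P14, and both receptor genes of Lgi4 were below the other 5 from P5 on: at P60 Adam22 stood at 2.95 ± 0.121 and Adam23 at 2.01 ± 0.209 CPM per kb. With the longest transcript as length, Adam23 was above Adam22 at P24 and P60 (5.61 against 4.58 CPM per kb at P60), so the order of these genes per length depends on the length chosen, as does that of Lgi4 and Adam23 at E13 and of Gpr37l1 and Adam23 at P1. Gpr37l1 had 0.352 ± 0.211 CPM per kb at E13 and 144 ± 14.2 CPM per kb at P14.

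**Figure D5:**
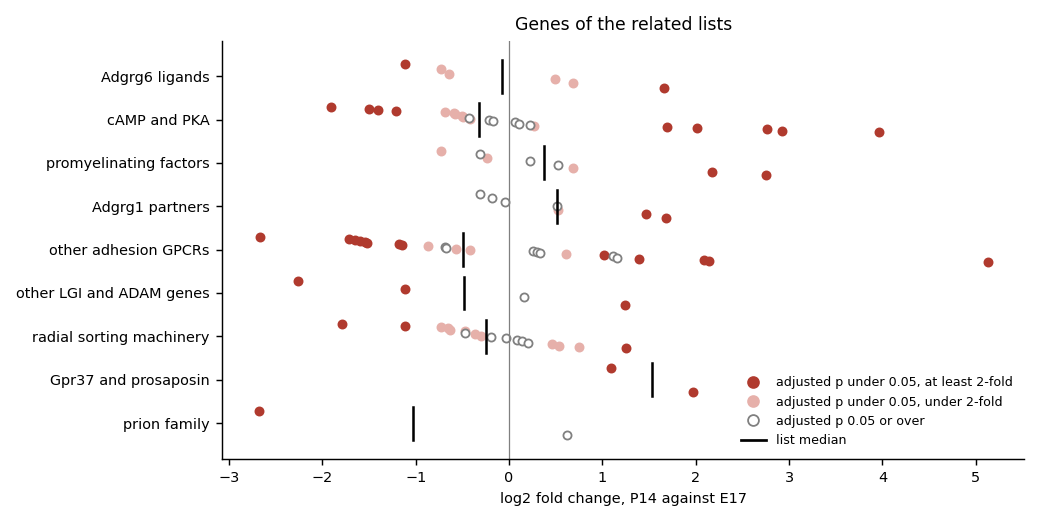
Log2 fold change at P14 against E17 (horizontal axis) of every tested gene in 9 lists related to the 7 genes (vertical axis). Dark points were called, light points passed with under 2-fold, open points did not pass, and bars are list medians, which lay at -0.08 for the Adgrg6 ligands and -0.24 for the radial sorting machinery.

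Likeness of course was described by the Pearson correlation of log2 CPM over 28 libraries with 11485 other genes. The genes most like Adgrg6 were Cntn1 (r = 0.953), Hsp90b1 (0.949) and Vgll3 (0.946). Those most like Lgi4 were Vwa1 (0.983), Rarres2 (0.980) and Timp2 (0.979), and those most like Prnp were Sri (0.993), Ly6c1 (0.989) and Cd59a (0.988). Gpr37l1 was closest to the myelin genes Mbp (0.997) and Pmp22 (0.994) and to Cd9 (0.993). Adam23 was closest to Igsf9b (0.979), Epha5 (0.979) and Lpar4 (0.976). The closest genes of Adgrg1, Ppp2r5b (0.912), Syk (0.910) and Ap2a2 (0.901), and of Adam22, Rtn4 (0.939) and Eml6 (0.901), were less like them. The names depend on the libraries used: over the 24 libraries without E13, Rtn4 held rank 250 and Eml6 rank 249 for Adam22, Timp2 rank 209 and Rarres2 rank 78 for Lgi4, while Mbp kept rank 1 for Gpr37l1. Libraries of a stage share their stage, so these values describe the courses of stage means more than 28 separate points.

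Among the 7 genes themselves, Adam22 and Adam23 had a correlation of -0.82 over the 24 libraries from E17 on and of -0.50 over all 28. Adam23 correlated at 0.79 with Adgrg6 and at -0.93 with Prnp over the 24 libraries, and at 0.75 and -0.39 over all 28. Adam22 and Prnp had a value of 0.92 over 24 and 0.59 over 28. The value for Adgrg6 and Lgi4 was -0.51 over 24 libraries and 0.40 over 28, and that for Adgrg6 and Gpr37l1 was -0.89 over 24 and 0.12 over 28. The 4 E13 libraries, in which Adgrg6, Lgi4, Prnp and Gpr37l1 were all low, thus turned the sign for both pairs.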

How the data were processed

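Poly-A RNA of 28 nerve samples was sequenced from a stranded kit with single-end reads. Per the labels and methods, the authors trimmed reads, aligned them with STAR 2.6.1c and deposited raw counts per gene from featureCounts. The submitters' notes name GRCm38.p5 where the methods name a human build, and strand and multi-mapping settings of counting are not given in the sources used here. Of 41605 identifiers 41519 matched GENCODE M21.

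Counts were scaled by TMM and tested with the edgeR 4.0.16 quasi-likelihood test in R 4.3.3, with stage as the sole term over 28 libraries, after filterByExpr (17700 genes, of 13899895 to 37662780 counts per library). Alternatives used limma 3.58.1 and DESeq2 1.42.0, other scalings, filters and GC corrections, and a replicate block. Others left out each library in turn or the E13 libraries, or used only the stages compared. Ratios used CPM with a prior count of 2 and exact permutation tests (scipy 1.17.1). Replicates were separate animals or embryo pools, and no pair of libraries was identical. Tested on simulated data for P14 against E17, the fit recovered 198 of 200 changed genes with 2 false calls among 16953. The simulation had a single dispersion of 0.044, no change in other genes or stages, and well-counted genes changed by more than 2-fold. It therefore gives no error rate for changes near 2-fold or for data in which many genes change.

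The members and lists were chosen with earlier results of these data known. Besides the members, the text names up to 2 genes per list with the largest rise and 2 with the largest fall called at P14 against E17, all genes of lists of up to 4, and the 3 genes most correlated with each member among those whose highest stage mean was at least 10 CPM, of which 1 is not reported here. Other list genes given with values (the remaining Adgrg6 ligands, promyelinating factors and Adgrg1 partners, Erbb3 and Itgb1) and the overlapping genes were named after their values were seen.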

Additional observations from a re-analysis of the deposited data

Results flagged for a closer look

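Single libraries stood apart from the other 3 of their stage in 4 of 49 groups (7 genes at 7 stages), by the gap to the nearest library over the range of the group against Dixon's 95% critical value. Chance gives such a library in about 1 in 20 groups. Adgrg1 was low in library 1 of P1, at 24.3 CPM beside 36.2 to 36.8 CPM in the others (gap over range 0.952). Adgrg1 was high in library 1 of P24, at 72.6 CPM beside 58.1 to 60.4 CPM (0.841). Adam23 was high in library 1 of P60, at 41.7 CPM beside 33.7 to 34.5 CPM (0.900), and Prnp in library 2 of P60, at 1060 CPM beside 962 to 970 CPM (0.918). Library 1 of P1 also had a GC slope of -0.43 log2 units per 10% of GC, and its part in the Adgrg1 value was not tested.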

How the results depend on the processing

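The 11 other settings counted first include fits without the E13 libraries, without these and library 1 of P1, and on only the stages compared. The replicate block and fits without 1 library are given apart. Under these 11 settings 581 of 602 changes of single genes kept direction and call, and 10 turned sign. Those at P14 against P5 were for Adgrg6, from -0.01 to 0.01 (DESeq2 size factors, DESeq2, limma-voom, only the stages compared), 0.00 (at least 1 CPM in 4 libraries) and 0.07 (GC trend removed over all libraries, chosen after seeing the data), and for Adgrg1 to -0.09 (library totals only). Scaling by totals only also turned Adam22 at P1 against E17 to -0.04 and Lgi4 at P14 against E17 to -0.31, and the GC setting turned Lgi4 there to -0.01. That scaling put the median of all genes at -0.17 (P14 against P5), -0.11 (P1 against E17) and -0.48 (P14 against E17), and relative to it these changes of Adgrg1, Adam22 and Lgi4 were positive. Adgrg6 at P14 against E17 became called under 5 settings (-1.0 to -1.47), and Adgrg1 at P5 against P1 dropped under 2-fold under 4 (0.90 to 1.0). Passes on adjusted p that were lost are given beside their values. Adam22 at P60 against P1 was called at 1.04 under the GC setting. Leaving out libraries turned Adgrg6 at P14 against P5 (range -0.06 to 0.06, with 0.00 and 0.06 without library 1 or 4 of P5) and Adam22 at P24 against P14 (range -0.13 to 0.01, with 0.01 without library 1 of P24). None of these reversed values passed the test, and the cause was not tested. With no fold minimum the counts of genes were 3 (P1 against E17), 5 (P14 against P5), 1 (P24 against P14), 4 (P60 against P24) and 7 (P60 against P1). Leaving out 1 library, the count at P14 against P5 was 1 to 2, the added gene being Gpr37l1 without library 3 of P5 or library 1 or 2 of P14, and Adgrg1 was lost without library 4 of E13 (5 at E17 against E13) and without library 1 of P1 (2 at P5 against P1).

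The genes most like each of the 7 moved in rank in 31 of 42 comparisons without E13 or with Spearman correlation. The ratio tests cannot pass with 4 against 3 libraries (smallest p 0.057, adjusted 0.069). The ratios without 1 library ranged from -1.70 to -1.61 for Adgrg6 to Adgrg1 at P14 against E17, from 2.28 to 2.42 and from 1.01 to 1.10 for Adam22 to Adam23 at P14 against E17 and P60 against P14, and from -1.01 to -0.89 and from 1.04 to 1.13 for Lgi4 to Adam22. Replicate numbers name separate animals, and no source says that a number is shared by a litter, day or sex. Deviations of same-numbered libraries correlated at -0.20 to 0.57 (median 0.084), and those of differently numbered libraries at -0.47 to 0.26 (median -0.04). Of 28 libraries 18 correlated best with their own number, a hint from the data of structure shared by number whose source was not tested. A replicate block left the counts at 6, 1, 3, 1, 0 and 0 for the adjacent stages and at 4 for both long spans, and moved Adam22 at E17 against E13 to -0.52.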
